A study of Mus musculus with 6 samples.

Results

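The actin genes of the mouse and a pair of actin pseudogenes were examined in total RNA-seq of quadriceps muscle. Genes were taken by symbol, and each of the 8 symbols matched 1 of the 53947 genes in the deposited tables. They comprise 6 protein coding genes (Acta1, Actc1, Acta2, Actg2, Actb and Actg1) and 2 processed pseudogenes (Actg-ps1 and Gm8543). The 8 were put together because of their values in the same comparison that is described here, so their levels and fold changes are given as a description and without a test.

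The mice examined were HSALR mice aged 12 weeks, which carry a human skeletal actin gene with a CTG repeat tract of approximately 220 repeats (3 libraries), and they were compared with wild-type (WT) mice of the same age without the transgene (3 libraries). The repeat RNA made from the transgene in muscle binds MBNL splicing factors, and these mice are used to model myotonic dystrophy type 1. The labels give neither strain nor litter, and they do not say that the replicates are separate animals, so the spread between libraries may be partly technical. The transgene is itself an actin gene, but no sequence of it was used here, and reads of it have no row of their own in the tables. Whether any count listed for a mouse actin comes from the transgene was therefore not tested, and the genes are called by their names only.

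Actins are the monomers of the thin filament of muscle and of the cytoskeleton of all cells. Mammals have 6 of them. Acta1 encodes the skeletal muscle form of adult fibres, Actc1 the cardiac form, which is also made in developing and regenerating skeletal muscle, Acta2 the vascular and Actg2 the enteric smooth muscle form, and Actb and Actg1 the cytoplasmic beta and gamma forms. Processed pseudogenes are copies of spliced messenger RNAs put back into the genome, and Actg-ps1 and Gm8543 are such copies of an actin messenger. Because the coding sequences of the family are so similar, short reads can match more than 1 of these loci. RSEM, the program named in the submitters' processing notes, divides such reads between loci, so an expected count that is not a whole number includes divided reads.

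The 8 loci lie on 7 chromosomes of GRCm39. Acta1 spans chr8:124618501-124623661, Actc1 chr2:113876266-113884043, Acta2 chr19:34217737-34232990, Actg2 chr6:83489887-83513551, Actb chr5:142888870-142892509 and Actg1 chr11:120236512-120239617, all on the minus strand. Actg-ps1 lies at chr8:46682031-46683154 and Gm8543 at chr9:38985398-38987031, both on the plus strand. Both pseudogenes are closest to Actg1. Actg-ps1 was identical to the Actg1 coding sequence at 97.5% of 1124 aligned bases and Gm8543 at 96.0% of 1125, against 83.4% and 81.7% identity with Acta1.

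Over the whole coding sequence Actc1 was 86.2% identical to Acta1 (157 of 1134 bases differed), Acta2 85.4%, Actg2 85.2%, Actb 85.0% and Actg1 83.8%. At the protein level Acta1 differed from Actc1 at 4 of 377 residues, from Actg2 at 6, from Acta2 at 8, from Actg1 at 23 and from Actb at 24.

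Among 100-base windows of Acta1 that fall in 1 exon and align without a gap in all 8 loci, the one with the fewest differences from Actg-ps1 lies at positions 991 to 1090 of the coding sequence, counted from the first base of the start codon. It is shown beside Actg1 and both pseudogenes because Acta1 and Actg-ps1 are most alike there among these windows. Sequences are from GRCm39, written from 5′ to 3′ on the strand of the gene, and capitals mark the bases that differ from Acta1, 7 in Actg-ps1, 8 in Gm8543 and 6 in Actg1.
Acta1 (chr8:124618792-124618891, minus strand): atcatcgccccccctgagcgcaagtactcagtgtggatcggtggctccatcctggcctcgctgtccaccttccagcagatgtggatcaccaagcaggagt
Actg1 (chr11:120237260-120237359, minus strand): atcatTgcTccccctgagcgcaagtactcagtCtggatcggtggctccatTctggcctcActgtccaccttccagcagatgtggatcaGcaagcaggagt
Actg-ps1 (chr8:46683014-46683113, plus strand): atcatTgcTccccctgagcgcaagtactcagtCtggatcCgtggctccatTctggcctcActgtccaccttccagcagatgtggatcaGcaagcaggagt
Gm8543 (chr9:38986891-38986990, plus strand): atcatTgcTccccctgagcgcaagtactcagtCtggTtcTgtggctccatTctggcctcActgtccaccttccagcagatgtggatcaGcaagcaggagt

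Windows of 50 bases were slid along the Acta1 coding sequence, 1085 in all, to see how much of it recurs in the other loci. Actb held 28 of the windows exactly, Gm8543 17, Actg-ps1 15 and Actg1 10, and none was found exactly in Actc1, Acta2 or Actg2. With up to 2 mismatches allowed, Actb held 94 windows, Actc1 44, Actg1 41, Actg-ps1 39, Gm8543 35, Actg2 31 and Acta2 8. No source used here gives the read length, so these windows describe the sequences and not the reads. Actg-ps1 differs from Actg1 at 28 aligned bases, and at 9 of them its base is the one in Acta1.

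**Figure D1:**
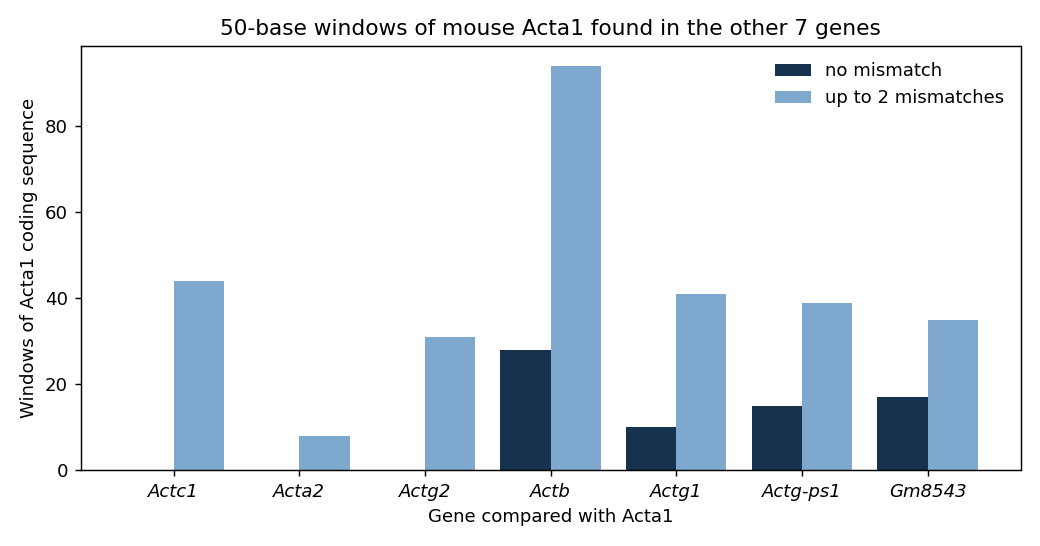
Number of 50-base windows of the mouse Acta1 coding sequence (1085 in all) that occur in each of the other 7 loci without a mismatch (dark bars) and with up to 2 mismatches (light bars). Actb holds the most, 28 and 94, and Actc1, Acta2 and Actg2 hold none without a mismatch.

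The libraries held 11468959 to 13220792 expected counts in HSALR and 14048603 to 15023710 in WT. The 8 genes took 1.61%, 3.45% and 3.28% of the counts in HSALR replicates 1, 2 and 3, against 2.71%, 2.68% and 2.53% in WT. 7SL and 7SK RNA, abundant short non-coding RNAs, took 43.9%, 18.8% and 24.0% of the HSALR counts, against 14.2%, 14.1% and 15.5% of the WT counts. The groups did not overlap in this share, and HSALR replicate 1 lay furthest from the WT libraries. On these unscaled totals 3 counts correspond to 0.227 to 0.262 CPM (counts relative to the size of the library) in an HSALR library and to 0.200 to 0.214 CPM in a WT library. The CPM values of genes given below are on scaled library sizes unless stated otherwise. Across all genes, 1597 of 13576 tested genes passed an edgeR adjusted p of 0.05 and are referred to as called. Of these 581 were higher and 1016 lower in HSALR (728 and 781 with upper-quartile factors, 50 and 469 with limma on TPM). The number called was 166 to 217 without any 1 of the WT replicates, 185 without HSALR replicate 3 and 3294 without HSALR replicate 2.

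The skeletal actin Acta1 was by far the most abundant of the 8. In TPM, a measure corrected for transcript length, it stood at 3329, 13286 and 10826 in HSALR, against 13317, 13039 and 11658 in WT. HSALR replicate 1, the library with the largest 7SL and 7SK share, was lowest, replicate 3 also lay below the WT libraries, and replicate 2 lay within their range. In CPM on scaled library sizes Acta1 averaged 25419 ± 8002 in HSALR and 26727 ± 1228 in WT (SD, n = 3 each), a log2 fold change (HSALR over WT) of -0.07 ± 0.28 (SE). The value was 0.17 without HSALR replicate 1 and -0.27 without HSALR replicate 2, so its sign rested on 1 library. In bulk tissue a smaller number of cells of a type and a smaller amount of RNA per cell cannot be told apart.

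The 2 actin pseudogenes had 0 expected counts in every WT library and counts well above the floor in HSALR. Actg-ps1 had expected counts of 1391.62, 3940.16 and 5153.55 in HSALR replicates 1, 2 and 3, against 0 in each of the WT libraries. Gm8543 had 190.96, 527.33 and 874.47 in HSALR, against 0 in each WT library. The groups did not overlap for either pseudogene, and HSALR replicate 1 was lowest for both, as it was for Acta1.

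On scaled library sizes Actg-ps1 averaged 265 ± 116 CPM in HSALR and Gm8543 39.8 ± 20.4 CPM (SD, n = 3). A count of 0 over the WT group allows up to 3 counts, or 0.0703 CPM. With the expected counts taken as given, Actg-ps1 was at least 3777-fold higher and Gm8543 at least 566-fold higher in HSALR. These bounds cover counting error only. They leave out how reads shared with Actg1 were divided, which was not tested, so they bound the expected counts and not the RNA of the pseudogenes. Per length, Actg-ps1 stood at 35.4, 176 and 177 TPM in HSALR, and in replicates 2 and 3 it was above both Actb and Actg1. Gm8543 stood at 4.83, 23.4 and 29.8 TPM.

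Few genes in these tables had this pattern at such counts. In all, 72 genes had 0 counts in every WT library and some count in every HSALR library, but only 3 of them reached 10 counts in each HSALR library. After the 2 actin pseudogenes came Gm49361, a predicted protein coding gene, with 27.71, 32.67 and 79.00 counts in HSALR. Psenen-ps, a processed pseudogene, followed with 16.00, 4.06 and 5.69 counts, and then a gene with no symbol in GENCODE at 4, 8 and 8 counts. In the other direction, 90 genes had 0 counts in every HSALR library and some in every WT library, with 1 of them reaching 10 counts throughout.

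The pseudogenes were also set against Acta1 library by library. For each 1000 expected counts on Acta1, Actg-ps1 had 8.05, 9.998 and 12.3 in HSALR replicates 1, 2 and 3, and Gm8543 had 1.11, 1.34 and 2.10. HSALR replicate 1, the lowest for all 3 genes, was also the lowest in both ratios. Against Actg1, the gene it most resembles in sequence, Actg-ps1 had 43.8%, 172% and 140% of the counts in the same libraries. Gm8543 had 13.7%, 13.4% and 17.0% of the Actg-ps1 counts. These ratios rest on 3 libraries and are given as a description.

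**Figure D2:**
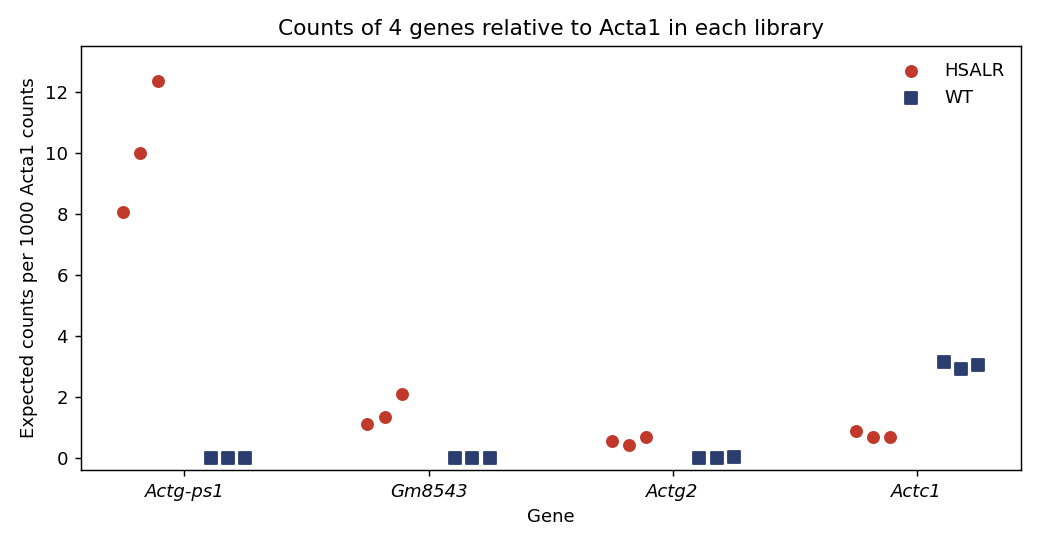
Expected counts of Actg-ps1, Gm8543, Actg2 and Actc1 for each 1000 expected counts on Acta1, one point per library (HSALR, red circles; WT, blue squares). Actg-ps1, Gm8543 and Actg2 lie above 0 in all HSALR libraries and at or near 0 in WT, and Actc1 lies below 1 in HSALR and near 3 in WT.

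Other copies of actin messengers did not show this pattern. Of the other actin pseudogenes in the tables, 14 shared at least 20 words of 31 bases with one of the 8 genes. Of these, 12 stayed below 3 counts in every library, and 7 were at 0 in all 6. Among the 8 that shared at least 100 such words with Actg1, the highest count was 1.04 in HSALR and 2.08 in WT. They include Gm12715 (0 in all HSALR libraries, and 2.08, 0 and 0 counts in WT), Gm16385 (1.03 counts in WT replicate 3 only), Gm6375 (1.00 count in HSALR replicate 2, and 2.00 and 1.00 in WT replicates 2 and 3), Gm47692 (1.00 count in HSALR replicate 2) and Gm5388 (1.04 counts in HSALR replicate 3).

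The exceptions were Gm15725 and Gm17228. Gm15725, which is nearest to Actb, had 38.69, 43.77 and 92.03 counts in HSALR, against 29.13, 31.69 and 66.64 in WT, with overlapping groups. Gm17228 had 0, 2 and 5 counts in HSALR, against 8, 10 and 9 in WT. The sum of the 8 genes did not change to 2 decimals on the log2 scale when all of these were added to it.

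Actc1, the cardiac actin, was lower in HSALR. Its expected counts were 151.87, 265.16 and 281.08 in HSALR, against 1249, 1150 and 1064 in WT, and the groups were far apart. In CPM it averaged 18.2 ± 3.52 in HSALR and 81.2 ± 6.35 in WT (SD, n = 3 each), a log2 fold change of -2.15 ± 0.17 (SE) that stayed between -2.29 and -2.0 with each library left out. Per length it stood at 2.84, 8.69 and 7.07 TPM in HSALR, against 40.4, 36.8 and 34.6 TPM in WT.

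The ratio of Actc1 to Acta1 was similar among the libraries of a group. For each 1000 counts on Acta1, Actc1 had 0.879, 0.673 and 0.674 in HSALR, against 3.14, 2.91 and 3.06 in WT. HSALR replicate 1, low for both genes, was not low in this ratio.

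Actg2, the enteric smooth muscle actin, was near the floor in WT muscle and higher in HSALR. It had 94.77, 174.22 and 293.98 expected counts in HSALR, against 3, 1 and 8 in WT. In CPM it averaged 14.3 ± 5.36 in HSALR and 0.291 ± 0.273 in WT (SD, n = 3 each). The summed and rounded counts, 563 in HSALR and 12 in WT, gave a ratio of 53.0 after scaling, with a binomial 95% interval of 30.1 to 103. That interval covers counting error only, and neither the spread between libraries nor the division of reads between loci.

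The fitted log2 fold change of Actg2 was 5.62 ± 0.54 (SE), and it depends on the prior count of the fit because WT replicates 1 and 2 lay at or under 3 counts. It was 6.62 without WT replicate 3 and 5.12 without WT replicate 2. For each 1000 counts on Acta1, Actg2 had 0.548, 0.442 and 0.704 in HSALR, against 0.0075, 0.0025 and 0.0230 in WT. The abundance-weighted transcript length that RSEM gave Actg2 was 693 to 745 bases in HSALR and 673 to 1273 bases in WT, shorter than its coding sequence of 1131 bases in each HSALR library and in WT replicates 1 and 2, where it rests on 3 and 1 counts.

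Acta2, the vascular smooth muscle actin, was the only member with whole counts in all 6 libraries. It had 307, 226 and 323 counts in HSALR, against 262, 335 and 341 in WT, and the groups overlapped. In CPM it averaged 23.0 ± 5.61 in HSALR and 22.0 ± 3.42 in WT, a log2 fold change of 0.06 ± 0.19 (SE), which turned to -0.13 without HSALR replicate 1 and to -0.04 without WT replicate 1. In TPM it stood at 5.76, 7.29 and 8.32 in HSALR, against 8.93, 9.30 and 9.61 in WT, without overlap on that scale. The median fold change of all tested genes was lower on that scale too, as given below.

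Markers of vascular smooth muscle and pericytes, the cells in which Acta2 is normally found, summed to 748 to 779 CPM in HSALR and to 1002 to 1074 CPM in WT over 15 genes. Of the 14 tested, 1 rose and 2 fell, and their median log2 fold change was 0.11, against 0.04 over all tested genes. Cspg4, a pericyte proteoglycan, rose to 28.6 ± 8.05 CPM in HSALR, against 13.2 ± 3.07 in WT (edgeR adjusted p = 0.0281). Abcc9, a potassium channel subunit, fell to 188 ± 39.6 CPM in HSALR, against 319 ± 24.8 in WT (edgeR adjusted p = 0.0303), and Synpo2, an actin-binding protein, to 217 ± 52.5 CPM, against 367 ± 15.3 in WT (edgeR adjusted p = 0.0371). Abcc9 and Synpo2 had the highest CPM of the 14 in WT, so the sum mostly follows them and not the list as a whole. Myh11, the smooth muscle myosin, stood at 16.4 ± 3.38 CPM in HSALR and 21.0 ± 1.55 in WT and was not called. None of the 15 was at 0 in all libraries, and the part of these cells in the Acta2 and Actg2 values was not tested.

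The cytoplasmic actins were higher in HSALR when counts were scaled by library, but not as TPM, where the median of all genes was shifted as well (given below). Actb had 6169.44, 3794.61 and 6021.97 expected counts in HSALR, against 3490.00, 4397.75 and 3740.66 in WT. On scaled library sizes it stood at 587, 306 and 404 CPM in HSALR, against 247, 291 and 278 CPM in WT, so the lowest HSALR library lay just above the highest WT library. The log2 fold change was 0.67 ± 0.23 (SE), and 0.40 without HSALR replicate 1. In TPM Actb stood at 106, 111 and 164 in HSALR, against 109, 134 and 113 in WT, and the groups overlapped.

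Actg1 followed Actb. Its expected counts were 3179.31, 2294.51 and 3685.97 in HSALR, against 2239.92, 2439.00 and 2024.97 in WT. On scaled library sizes it stood at 302, 185 and 247 CPM in HSALR, against 158, 162 and 151 CPM in WT, a log2 fold change of 0.64 ± 0.19 (SE). In TPM it stood at 49.1, 72.0 and 84.6 in HSALR, against 69.1, 69.2 and 58.6 in WT, again with overlap. The ratio of Actg1 to Actb counts was 51.5%, 60.5% and 61.2% in HSALR, against 64.2%, 55.5% and 54.1% in WT.

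The median over all genes differed between the scales as well. On log2(TPM + 0.1) the median fold change of all tested genes was 0.50 lower than on scaled counts. There Actb had a log2 fold change of 0.07 ± 0.38 and Actg1 of 0.03 ± 0.40 (SE), or 0.57 and 0.53 once the shift of the median is taken off. Acta1 had -0.69 ± 0.40 there, or -0.19 without the shift. Acta2 had -0.39 ± 0.42, or 0.11 without the shift, so its sign turned. The values of Actc1 (-2.71 ± 0.44) and Actg2 (5.21 ± 0.46) kept their direction on this scale.

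**Figure D3:**
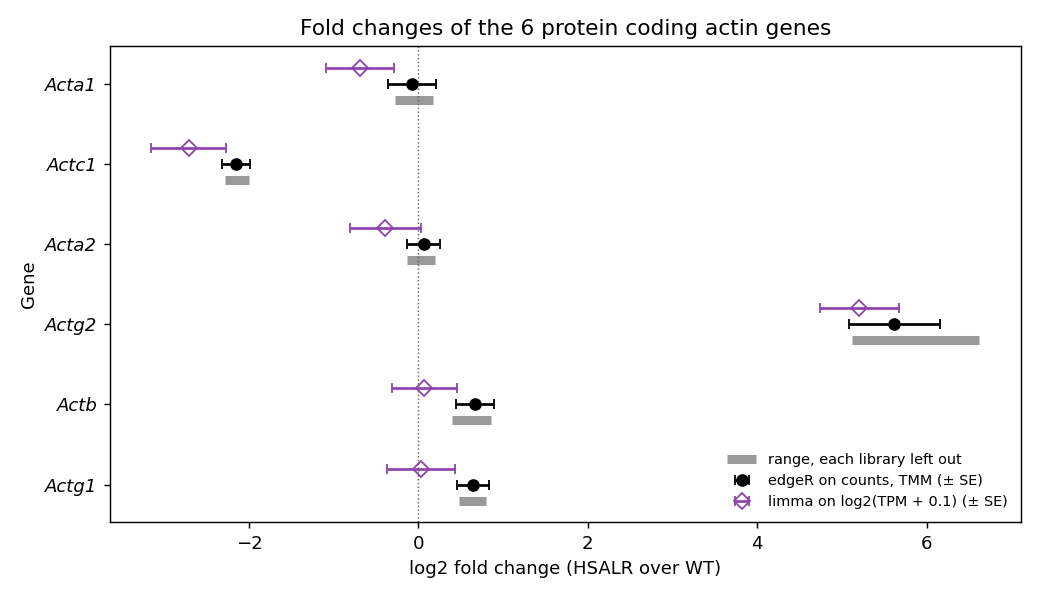
Log2 fold change (HSALR over WT, horizontal axis) of the 6 protein coding actins: edgeR on counts (black points, bars ± SE), limma on log2(TPM + 0.1) (open diamonds, bars ± SE) and the range of the edgeR value with each library left out in turn (grey). Actc1 lies near -2.15 and Actg2 near 5.62, and Actb and Actg1 lie near 0.67 and 0.64 on counts but near 0 on TPM.

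Actb and Actg1 are made in most cell types, so markers of cells other than muscle fibres were set beside them. Fibroblast markers summed to 3715 to 10681 CPM in HSALR and 2930 to 3155 CPM in WT, and 2 of 10 rose. The HSALR sums were 10681, 3715 and 5299 CPM in replicates 1, 2 and 3, so replicate 1 was the highest, as it was for Actb and Actg1. Col3a1, a fibrillar collagen, rose to 1317 ± 725 CPM in HSALR, against 515 ± 51.8 in WT (edgeR adjusted p = 0.0456), and Gsn, the actin-severing protein gelsolin, to 2745 ± 1259 CPM, against 1279 ± 85.6 in WT (edgeR adjusted p = 0.0472).

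Macrophage markers summed to 228 to 695 CPM in HSALR and 157 to 178 CPM in WT, and 5 of 10 rose. Here too HSALR replicate 1 was the highest, at 695 CPM against 228 and 322 CPM in HSALR replicates 2 and 3. No fibroblast or macrophage marker was called without HSALR replicate 3 or without any 1 of the WT replicates, whereas 4 and 7 were called without HSALR replicate 1. DESeq2 called 6 fibroblast and 9 macrophage markers, and limma on TPM called 0 and 1. Cd68, a lysosomal glycoprotein, rose to 9.63 ± 4.18 CPM in HSALR, against 2.98 ± 0.358 in WT (edgeR adjusted p = 0.0148), and Trem2, a myeloid receptor, to 2.54 ± 2.09 CPM, against 0.139 ± 0.142 (edgeR adjusted p = 0.0237). The scavenger receptor gene Cd163 rose by 1.34 ± 0.29 on the log2 scale (edgeR adjusted p = 0.0249), and Adgre1, the classical macrophage surface marker, by 1.31 ± 0.31 (edgeR adjusted p = 0.0318).

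Endothelial markers overlapped in their sum (195 to 292 CPM in HSALR, 213 to 244 CPM in WT), with Egfl7 higher (0.82 ± 0.15 on the log2 scale, edgeR adjusted p = 0.0148) and Flt1, a VEGF receptor, lower (-0.64 ± 0.13, edgeR adjusted p = 0.02). Adipocyte markers spread widely (370 to 2220 CPM in HSALR, 352 to 1001 CPM in WT) and none of 8 was called by edgeR, DESeq2 or limma on TPM, nor reached an unadjusted edgeR p below 0.05. With the replicate number as a block edgeR called 3 of them. The most abundant of them were the fatty acid carrier Fabp4, at 386 ± 373 CPM in HSALR and 157 ± 101 in WT, and the lipid droplet gene Plin4, at 357 ± 220 CPM in HSALR and 364 ± 105 in WT. The part of these cells in the Actb and Actg1 values was not tested.

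Skeletal muscle fibre markers, the cells of Acta1, summed to 56740 to 97251 CPM in HSALR and to 108472 to 121912 CPM in WT, a pair of ranges that do not overlap. Of the 10, 1 fell, the calcium pump gene Atp2a1, to 6397 ± 2259 CPM in HSALR, against 13611 ± 1551 in WT (edgeR adjusted p = 0.0446). That call was lost in 7 of 14 alternatives, and none of the 10 was called with upper-quartile factors. Mb, the myoglobin gene, went the other way without overlap, at 2930 ± 240 CPM in HSALR and 1976 ± 227 in WT. It was not called (edgeR adjusted p = 0.0695). The median log2 fold change of the 10 markers was -0.43. No marker of any list was at 0 in all 6 libraries.

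All 8 genes passed the filter on low counts, but Actg2, Actg-ps1 and Gm8543 did so through the HSALR libraries alone. Actg2 had 3, 1 and 8 counts in WT. The fit across all genes called 4 of the 8 (Actg2, Actg-ps1 and Gm8543 higher, Actc1 lower), where it called 11.8% of the 13576 tested genes, 4.28% as higher and 7.48% as lower. Groups did not overlap in CPM for 6 of the 8, against 37.8% of the tested genes. Since the genes were chosen on this comparison, nothing is read from these counts.

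**Figure D4:**
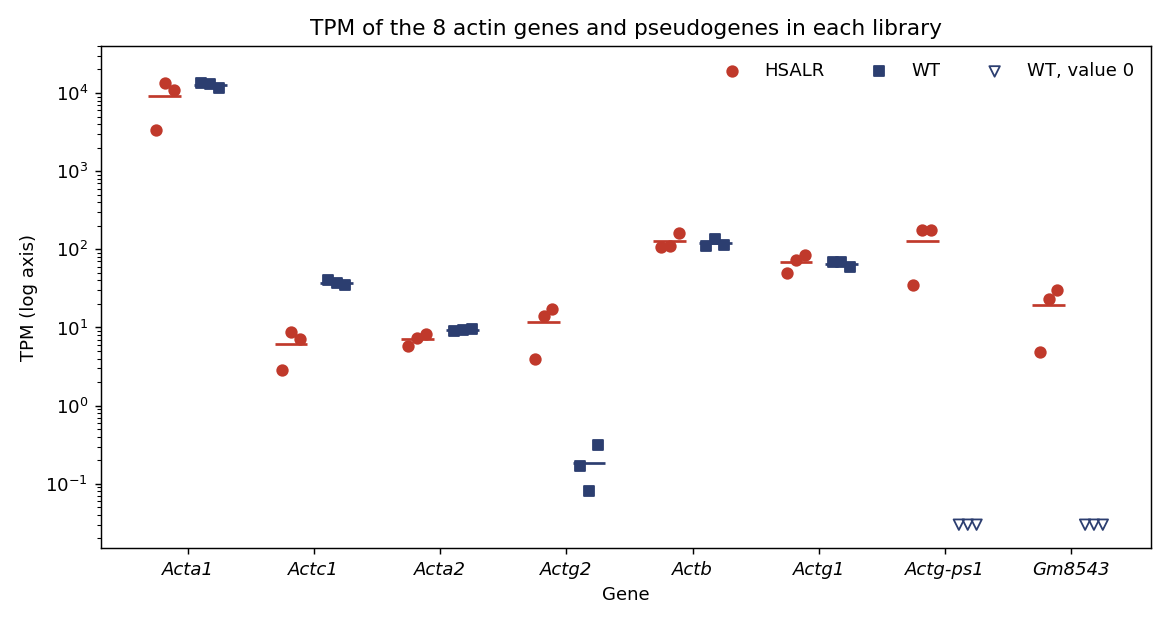
TPM of the 8 genes (log axis) in each library, with HSALR as red circles and WT as blue squares, horizontal lines at the group means and open triangles for values of 0. Acta1, Actb and Actg1 overlap between the groups, Actc1 and Acta2 are lower in HSALR on this scale, and Actg2, Actg-ps1 and Gm8543 are higher. The median fold change of all tested genes is also lower on TPM than on scaled counts, and Acta2 is not lower once that shift is taken off.

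Fractions in the expected counts showed where reads had been divided. With a count taken as whole within 0.005, 7 of the 8 genes were not whole in each HSALR library, Acta2 being the exception. With a tolerance of 0.05 there were 6, 6 and 4 such genes in HSALR replicates 1, 2 and 3, against 1 in each WT library. At the tighter tolerance, in WT 6 of the 8 had counts above 0, and only Actb and Actg1 were not whole, each in 2 libraries. Acta1 read 172821.47, 394111.95 and 417345.86 in HSALR, against 397805.00, 395032.00 and 348064.00 in WT.

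Across all genes with counts the share that was not whole was close in the groups, 19.1% to 20.5% in HSALR and 20.7% to 21.4% in WT. Only 17 of 11257 genes that were whole in every WT library and above 0 throughout (0.151%) were not whole in every HSALR library, and Acta1, Actc1 and Actg2 were among them. Of these 17, Acta1 had the highest mean count and Actc1 the next. The reverse pattern occurred in 33 of 11301 genes (0.292%). A fraction shows that reads were divided and not how many, so the size of any exchange between loci was not measured.

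The order of the actins by TPM was the same in all 3 WT libraries. It ran Acta1, Actb, Actg1, Actc1, Acta2 and Actg2, with the pseudogenes at 0, and the ranges of neighbours did not overlap. In HSALR the order differed between libraries. Acta1 came first in each, but Actg-ps1 stood below Actb and Actg1 in replicate 1 and next after Acta1 in replicates 2 and 3. The range of Actg-ps1 overlapped those of both Actb and Actg1 in HSALR, while Actb lay above Actg1 throughout. Overlap was also found among Gm8543, Actg2, Acta2 and Actc1, which all stood at 29.8 TPM or less.

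As a share of the summed TPM of the 8 genes, Acta1 took 95.6% ± 1.44 in HSALR and 98.2% ± 0.10 in WT (SD, n = 3 each), with no overlap. Actg-ps1 took 1.28% ± 0.280 in HSALR and 0 in WT, Gm8543 0.190% ± 0.0655 and 0, and Actg2 0.123% ± 0.0262 and 0.0015% ± 0.0010. Actc1 took 0.0687% ± 0.0100 in HSALR and 0.289% ± 0.0110 in WT. Actb took 1.75% ± 1.13 in HSALR and 0.923% ± 0.105 in WT, and Actg1 0.887% ± 0.447 and 0.508% ± 0.0136.

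The combined share outside Acta1 was largest in HSALR replicate 1, where most of it was Actb and Actg1, while Actg-ps1 and Gm8543 had their smallest HSALR shares in that library. In HSALR replicates 2 and 3 Actg-ps1 was the largest of them. With the pool limited to the 6 protein coding genes the difference in the Acta1 share, HSALR minus WT, was -1.17 percentage points in place of -2.60. The 8 genes together averaged 26457 ± 7932 CPM in HSALR and 27259 ± 1212 in WT, a log2 ratio of -0.04 that turned to 0.18 without HSALR replicate 1 and to 0.07 on unscaled library totals.

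**Figure D5:**
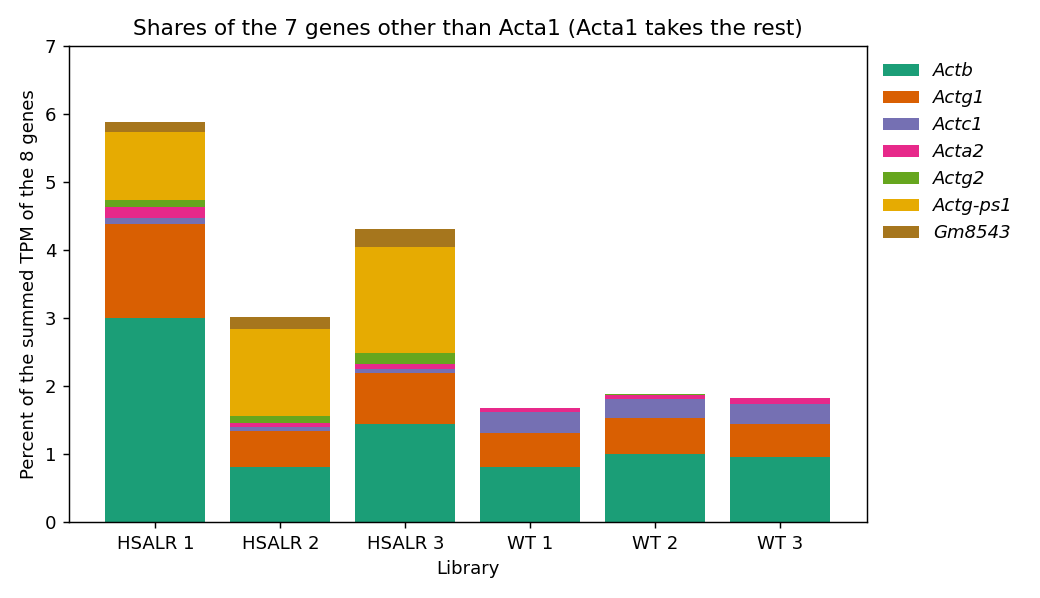
Share of the summed TPM of the 8 genes taken by each gene other than Acta1 (percent, stacked), for the 3 HSALR libraries on the left and the 3 WT libraries on the right. Actg-ps1, Gm8543 and Actg2 appear in the HSALR bars only, except for an Actg2 share of 0.0015% in WT that is too thin to see.

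The genes for proteins that fold, cut and bind actin were compared in the same fit, as counts of genes called. Of 18 genes for actin folding and modification (the TRiC chaperonin, prefoldins and actin-modifying enzymes) none was called by edgeR, DESeq2 or limma on TPM, 4 had an unadjusted edgeR p below 0.05, and the median log2 fold change was -0.12, against 0.04 over all tested genes. The most abundant were the chaperonin subunits Tcp1, at 157 ± 32.5 CPM in HSALR and 161 ± 1.79 in WT, and Cct6a, at 104 ± 6.11 CPM in HSALR and 115 ± 4.87 in WT.

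Among 17 genes for actin monomer binding, severing and capping 3 rose and none fell, with a median of 0.26. Cfl1, the non-muscle cofilin that severs filaments, stood at 46.8, 24.0 and 31.6 CPM in HSALR, against 18.4, 19.5 and 18.4 CPM in WT (log2 fold change 0.86 ± 0.22, edgeR adjusted p = 0.0403). Dstn, destrin, a relative of cofilin, stood at 56.2, 35.0 and 31.4 CPM in HSALR, against 21.6, 24.4 and 25.0 CPM in WT (0.79 ± 0.21, edgeR adjusted p = 0.0465). The third was Gsn, at 4143, 1700 and 2393 CPM in HSALR, against 1181, 1341 and 1315 CPM in WT (1.10 ± 0.30, edgeR adjusted p = 0.0472). HSALR replicate 1 was the highest for all 3 genes, as it was for Actb and Actg1. Without it the log2 fold changes were 0.58 for Cfl1, 0.50 for Dstn and 0.69 for Gsn, and all 3 were called. None of the 17 genes was called without HSALR replicate 3, without any 1 of the WT replicates, with the replicate number as a block or with limma on TPM.

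None of 17 genes for actin branching and actin-related proteins was called by edgeR (3 at an unadjusted p below 0.05; DESeq2 called 2 and limma on TPM 0), with a median of 0.15. The most abundant were Actr1b, a dynactin subunit, at 92.9 ± 24.1 CPM in HSALR and 95.5 ± 3.02 in WT, and Arpc5l, of the Arp2/3 complex, at 80.6 ± 14.0 CPM in HSALR and 74.2 ± 5.55 in WT.

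Of 19 tested partners of actin in the sarcomere edgeR called none (3 at an unadjusted p below 0.05; DESeq2 called 3 and limma on TPM 2), with a median of -0.27. Neb, nebulin, which lines the thin filament, stood at 8627 ± 3220 CPM in HSALR and 17572 ± 953 in WT (log2 fold change -1.03 ± 0.30, edgeR adjusted p = 0.0549), and Tnnt3, the fast troponin T, at 9503 ± 2376 CPM in HSALR and 13318 ± 663 in WT (-0.49 ± 0.24, edgeR adjusted p = 0.199). Without HSALR replicate 1, 4 genes of this list were called.

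SRF is the transcription factor that responds to the pool of free actin monomers through its MRTF cofactors. Of 13 tested genes for SRF, its cofactors and its targets (cytoskeletal genes, Fos and Egr1) none was called by edgeR, with a median of 0.36. At an unadjusted edgeR p below 0.05 there were 6, and DESeq2 called 3 and limma on TPM 0. Abra, an activator of SRF signalling in striated muscle, stood at 171 ± 12.4 CPM in HSALR and 302 ± 108 in WT (edgeR adjusted p = 0.0534), and Flna, filamin A, at 177 ± 72.0 CPM in HSALR and 112 ± 13.6 in WT (edgeR adjusted p = 0.132).

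Actc1 is made in immature fibres, and other genes of embryonic and regenerating muscle were set beside it. Of 10 tested, 4 rose and none fell, with a median of 0.83, while Actc1 was lower. DESeq2 called 5 of the 10 and limma on TPM 0. The calls were 0 without HSALR replicate 3, WT replicate 1 or WT replicate 3, 1 without WT replicate 2 and 2 with the replicate number as a block. Myh8, the perinatal myosin heavy chain, stood at 5.99 ± 1.51 CPM in HSALR and 2.39 ± 0.278 in WT (log2 fold change 1.3 ± 0.27, edgeR adjusted p = 0.0204), and Myl4, the embryonic and atrial light chain, at 7.17 ± 2.05 CPM in HSALR and 2.98 ± 0.791 in WT (1.27 ± 0.30, edgeR adjusted p = 0.0297). Cdkn1a, a cell cycle inhibitor, changed by 0.96 ± 0.25 on the log2 scale (edgeR adjusted p = 0.0403) and H19, an imprinted non-coding RNA, by 1.04 ± 0.26 (edgeR adjusted p = 0.0405, and 0.127 without HSALR replicate 1).

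Genes of the slow and cardiac sarcomere, to which Actc1 belongs in the heart, varied widely in both groups, and none of 13 was called by edgeR, DESeq2 or limma on TPM (1 at an unadjusted edgeR p below 0.05). Myh7, the slow myosin heavy chain, stood at 131 ± 150 CPM in HSALR and 180.0 ± 294 in WT, and Atp2a2, the slow calcium pump, at 112 ± 67.9 CPM in HSALR and 172 ± 196 in WT. Actc1 did not show such a spread within groups.

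In these 7 lists together 7 distinct genes were called. The number was 0 without WT replicate 1, WT replicate 3 or HSALR replicate 3, 1 without WT replicate 2, 12 without HSALR replicate 1 and 28 without HSALR replicate 2.

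The genes whose levels followed each actin most closely were found by the mean absolute difference of centred log2 CPM over the 6 libraries. For Acta1 they were Atosb (0.04), Vps9d1 (0.04) and Ccdc57 (0.04), where the median over candidate genes was 0.34. For Actc1 they were Qser1 (0.08), a gene known only by the identifier ENSMUSG00000121429 (0.11) and the immunoglobulin heavy chain gene Ighm (0.15), against a median of 1.10. Qser1 stood at 25.6, 36.7 and 33.4 CPM in HSALR, against 139, 114 and 136 CPM in WT.

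For Acta2 the nearest genes were Ctdp1, Trim12c and Zfp81, all at 0.06 (median 0.33). For Actg2 they were Ccdc192 (0.66), Spns3 (0.90) and the brush border myosin gene Myo1a (1.02), against a median of 2.87, so none was as close as for the other actins. For Actb they were Col4a2, a basement membrane collagen (0.03), Ywhaq (0.04) and Mgat2 (0.04), against a median of 0.42, and for Actg1 Atp6v0e (0.03), Dock10 (0.04) and Sec61a1 (0.04), against 0.40. Such a likeness over 6 libraries was chosen from all tested genes and is a description of these libraries only.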

How the data were processed

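Total RNA of quadriceps was sequenced from 3 HSALR and 3 WT samples after removal of ribosomal RNA with a stranded kit, per the labels. Samples were grouped by their titles. The authors deposited 1 gene table per sample with expected counts, which are RSEM's estimates of reads per gene (RSEM 1.3.1, Bowtie2 and GRCm39 in the submitters' processing notes, with no annotation release named). The deposited TPM and FPKM values are the authors' counts corrected for effective length and scaled by library, and the other columns, length and effective length, were deposited with them. The methods of the study cover small RNA libraries only and gave no test for these tables.

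Symbols and coordinates came from GENCODE M39, matched for 53400 of 53947 genes (99.0%). Expected counts were rounded, filtered with filterByExpr, scaled by TMM and tested with edgeR 4.0.16 (robust quasi-likelihood, limma 3.58.1, R 4.3.3), with calls at a Benjamini-Hochberg adjusted p below 0.05. SE was taken as the size of the log2 fold change over the square root of F. Coding sequences were read from GRCm39 at the annotated exons and aligned with Biopython 1.88. Some aligned stretches are not reported here. The 8 genes and all gene lists were chosen with earlier results of these data known. Besides the 8, the text names other actin pseudogenes with counts, up to 4 called genes of each list by lowest p (or the 2 most abundant), the 3 genes closest to each actin (predicted models and sex-linked genes left out) and the 5 highest genes at 0 in WT. Myh11 and Mb were added after their values were seen. The test was checked on simulated counts with 200 genes changed. It called 30.6% of those changed by 1 on the log2 scale and 89.6% of those changed by 2. Of its calls 5.69% were false. A gene that was not called may therefore still have changed. Libraries of a group all differed by more than sampling noise (lowest chi-square per degree of freedom 9.07). Intervals and floors allow for counting error alone, because PCR copies cannot be told from separate molecules. Alternatives were DESeq2 1.42.0, limma on log2(TPM + 0.1), other factors and filters, a replicate block and each library left out.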

Additional observations from a re-analysis of the deposited data

How the results depend on the processing

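All 6 protein coding actins moved by less than the spread between replicates under each alternative but limma on log2(TPM + 0.1), where Acta1 had -0.69, Actc1 -2.71, Acta2 -0.39, Actb 0.071 and Actg1 0.031, a scale on which the median of all genes was 0.50 lower. The replicate numbers did not pair the samples (correlations of deviations 0.02, -0.07 and 0.21 for numbers 1, 2 and 3). With them as a replicate block 799 genes were called in place of 1597, 3 in place of 7 in the gene lists, and Actc1 had -2.16, Actg2 5.65, Actb 0.62, Actg1 0.62, Acta1 -0.12 and Acta2 0.05. With limma on TPM 519 genes were called. In the gene lists the calls were 12 with no filter, 20 with DESeq2 and 2 with limma on TPM. The Acta1 share of TPM, HSALR minus WT, was -1.17 percentage points among the 6 coding actins. With a tolerance of 0.05 the mean share of counts not whole was 16.5% in HSALR and 17.3% in WT. The cause of these changes was not tested.

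With each library left out in turn, calls ranged from 166 to 3294 over all genes and from 0 to 28 in the gene lists. The log2 fold changes ranged from -0.27 to 0.17 for Acta1, -2.29 to -2.0 for Actc1, -0.13 to 0.20 for Acta2, 5.12 to 6.62 for Actg2, 0.40 to 0.86 for Actb and 0.47 to 0.80 for Actg1. Mean CPM in HSALR ranged from 225 to 332 for Actg-ps1 and 30.4 to 50.6 for Gm8543, and was 282 and 42.5 on unscaled library totals, a setting chosen after seeing the data. The log2 ratio of the 8 genes summed ranged from -0.22 to 0.18. Of 18 called list and marker genes named, none reversed and all lost the call in at least 1 alternative, 18 of them without HSALR replicate 3 and 17 with limma on TPM. Actg2 has no value with at least 10 counts required in every library.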
